A study of Mus musculus with 23 samples.

Results

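The genes described here were those whose signal BMP4 lowered in epiblast-like cells with intact Wnt3 but not in cells without it. They numbered 77 of 18194 genes that a probe set of the array names alone. For each gene the probe set with the highest mean was used, and its deposited signal was taken as log2(signal + 16). A gene was chosen when the mean over 12, 24 and 36 h of BMP4 minus no cytokine was at most -0.7 in Wnt3+/+ cells and above -0.3 in Wnt3-/- cells, and some array read above 200. Symbols of 15 families (Sox, Fgf, Pou, Otx, Fox, Dnmt, Klf, Wnt, Hox, Col, Lam, Itg, Slc, Efn and Eph) were left out. Without that step 90 genes met the thresholds, and 237 met the Wnt3+/+ threshold and the signal minimum whatever they did in Wnt3-/- cells.

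The study used male C57BL/6 mouse embryonic stem cell lines, Wnt3+/+ (here WT) or Wnt3-/- (here KO), 1 line of each, so that line and genotype cannot be told apart. All cells carried the BV transgene, in which Blimp1 regulatory elements drive membrane-targeted Venus. The stem cells were kept with LIF and 2 kinase inhibitors and turned into epiblast-like cells, which stand for the epiblast just before gastrulation, with Activin A, bFGF and serum replacement. These cells, the 0 h samples, were then grown as floating aggregates with LIF and serum replacement for 12, 24 or 36 h. WT aggregates received no cytokine, BMP4 at 500 ng/ml or WNT3A at 50 ng/ml, and KO aggregates received the same or both cytokines together. Each of the 23 combinations of genotype, cytokine and time is 1 Affymetrix whole-genome mouse expression array, with no replicate. The 3 times stand in for replicates in each test of a difference between group means. Its p-value sets the difference against how unsteady a gene was over the times within 1 series of cultures. A slope test instead sets the course over time against departures from a line with a bend common to all groups.

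BMP4 is a secreted factor that the extraembryonic ectoderm supplies to the epiblast, where its receptors act through SMAD proteins. One of the genes it switches on there is Wnt3, whose product stabilises beta-catenin, the partner of TCF/LEF factors on DNA. Embryos without Wnt3 form no primitive streak, and epiblast cells leave their state as they enter the streak or become germ cell precursors.

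The labels were checked first. Wnt3 itself read at most 27.9 in every KO array and up to 146 in WT cells with BMP4, but where the deletion lies in the gene was not stated in the labels, so this probe set may not report it. For 6 KO arrays the labels disagree with themselves: those titled WNT3A carry an array name with both cytokines, and those titled BMP4+WNT3A carry one with WNT3A alone. Id1, a direct BMP target, read 5480 to 9345 in the KO arrays titled WNT3A and 186 to 1323 in those titled BMP4+WNT3A, which goes against the titles. Groups below follow the titles and are called by them, and exchanging the labels exchanges the values given for these groups. Axin2, a target of WNT signalling, read 326 to 885 in these 6 arrays and 31.3 to 88.0 in the KO arrays of 12 to 36 h without cytokine or with BMP4 alone. Array medians lay between 36.8 and 41.4 and upper quartiles between 226 and 292. Precision is limited by the number of arrays. The ratio of the 3' to the 5' probe set of Gapdh, a measure of RNA quality, stood apart on 3 arrays: it was 4.03 in the WT sample given WNT3A for 24 h, 2.68 in untreated KO cells of 24 h and 2.30 in untreated WT cells of 36 h. Of 10 epiblast markers 7 exceeded the array median on every array, and Zic2 alone never exceeded 200.

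Sequence upstream of 3 members is shown because these genes fell in KO arrays titled WNT3A and hold the letters CTTTGA, the core of the site that TCF/LEF factors recognise. They are the members of that kind with the largest falls. Each line gives the 250 bases before a transcription start as RefSeq annotates it on GRCm38.p6, read 5′ to 3′ on the gene's strand, with the match in capitals. The Ugt8a window is chr3:125938653-125938902 (minus strand), the Syt11 window chr3:88772600-88772849 (minus strand) and the Coro1a window chr7:126704221-126704470 (minus strand).
Ugt8a: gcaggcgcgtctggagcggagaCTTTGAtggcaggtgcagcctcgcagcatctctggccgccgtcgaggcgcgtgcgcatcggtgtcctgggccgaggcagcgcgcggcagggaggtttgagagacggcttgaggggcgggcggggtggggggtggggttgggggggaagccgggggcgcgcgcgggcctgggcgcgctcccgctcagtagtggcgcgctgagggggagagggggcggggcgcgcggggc
Syt11: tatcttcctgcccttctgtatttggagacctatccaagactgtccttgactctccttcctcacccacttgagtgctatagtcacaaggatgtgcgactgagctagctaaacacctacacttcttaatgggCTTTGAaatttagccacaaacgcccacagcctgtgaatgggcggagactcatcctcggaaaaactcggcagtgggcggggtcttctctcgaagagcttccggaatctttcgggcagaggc
Coro1a: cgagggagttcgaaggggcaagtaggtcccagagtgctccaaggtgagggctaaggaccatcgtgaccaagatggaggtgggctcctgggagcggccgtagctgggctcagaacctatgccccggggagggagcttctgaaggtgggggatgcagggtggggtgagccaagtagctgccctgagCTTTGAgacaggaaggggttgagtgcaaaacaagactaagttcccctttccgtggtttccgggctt

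RefSeq start windows (250 bases before to 50 after) were found for 55 of the 77 members, 74 windows in all. CTTTGA or its complement TCAAAG stood in a window of 11 of the 55 members, which is 20%, against 18.2% of 27025 genes in the same table. The match is therefore about as frequent among the members as elsewhere. GGCGCC, a GC-rich SMAD element, was found for 34.5% of members and 13.4% of all genes, and the E-box CACCTG for 40% and 22.6%. The SOX letters ACAATG were found for 3.64% and 14.3%, and ACAAAG, which on the other strand shares its first letters with CTTTGA, for 12.7% and 21%. Median GC content was 62.0% in member windows and 52.7% in all 32851 windows, and base composition was not taken into account in these shares. Both strands were also searched for the T-box letters GGTGTGA (7.27% of members, 4.60% of genes), the SMAD palindrome GTCTAGAC (no member, 0.248%) and the octamer ATGCAAAT (5.45% and 1.97%). The OTX letters TAATCC (9.09% and 8.14%), ZIC letters CAGCAGG (10.9% and 12.0%), CCAAT (38.2% and 41.1%) and TATAAA (16.4% and 15.7%) completed the search. A match describes letters in a window and is not a measured site.

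The values that chose the members are given as a description only. Their median WT response to BMP4 was -0.90 log2 (range -1.84 to -0.70) and their median KO response -0.03 (range -0.29 to 0.91), with 29 members above 0 in KO. In WT the median deepened with time, from -0.60 at 12 h to -0.87 at 24 h and -1.42 at 36 h, while over all kept genes it stayed between -0.03 and -0.02. The largest fall was at 36 h for 55 members, at 24 h for 18 and at 12 h for 4. All 3 WT BMP4 arrays lay below all 3 arrays without cytokine for 40 members, as they did for 8.42% of all genes, and the other members overlapped; the rule used these arrays, so nothing is read from this count. The members just inside the WT threshold were Ydjc (-0.71), Shisa2 (-0.70) and Cbx7 (-0.70), and the genes just outside it Tfe3 (-0.69), Gulp1 (-0.69) and Ank (-0.69). At the KO threshold Plk3, Adam19 and Ugt8a stood just inside at -0.29, and Apoa2, Crmp1 and Nnat just outside at -0.31. All tests are on the log2(signal + 16) scale, which understates changes of dim genes. In the limma fit of 13256 genes no gene passed for the KO minus WT difference of the BMP4 response in either direction, 0% lower and 0% higher. At an unadjusted p under 0.05 it held 369 genes lower and 412 higher, with a smallest adjusted p of 0.0516, so the need for Wnt3 that names this module rests on thresholds and not on a test.

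**Figure D1:**
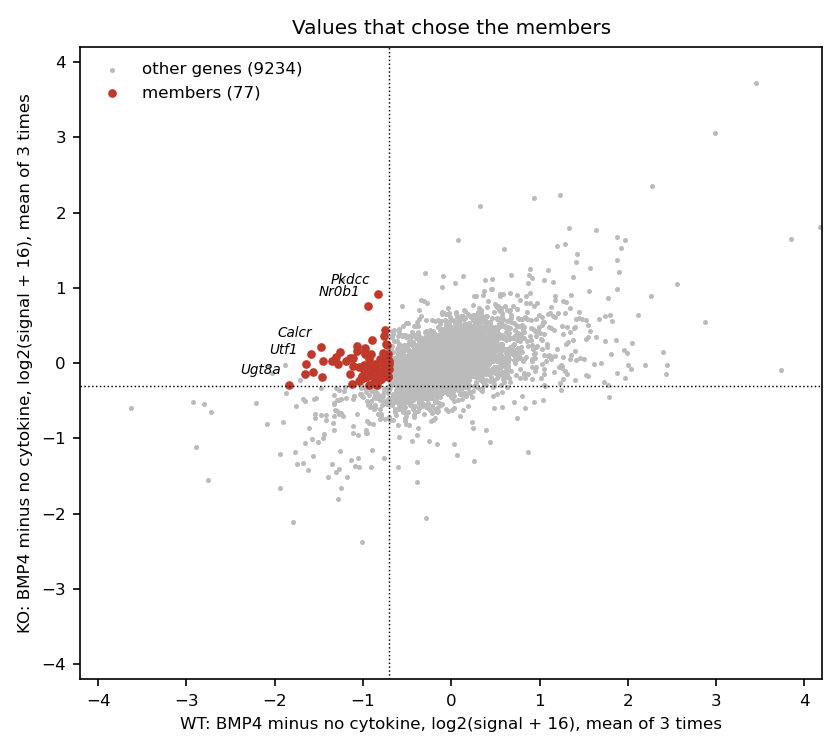
Each point is 1 gene with some array above 200, placed by its mean BMP4 response over 3 times in WT (horizontal) and KO (vertical), in log2(signal + 16). The 77 members (red) are those left of -0.7 and above -0.3, the dotted lines, and grey genes in the same area carry a left-out symbol. 2 genes lie beyond the axes.

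Levels of the members without cytokine are also given for both genotypes, as a description. There a higher KO level makes the KO minus WT difference of the BMP4 response smaller, and a lower one makes it larger. The median over members of KO minus WT without cytokine was 0.08 at 12 h, 0.15 at 24 h and 0.53 at 36 h. On the mean of the times 55 members were higher in KO and 22 lower. No value over all genes stands beside this count and these medians, and the rule used both groups, so nothing is read from them. For Chrd, Pcdh8, Pcsk1n, Pkdcc and Snord104 the KO level without cytokine lay nearer to the WT level with BMP4 than to the WT level without it. The levels in these groups also differed from 0 h, given here with no test since each count rests on a pair of arrays. In WT without cytokine 23 members were lower by 2-fold or more at 36 h, against 3% of all genes, and 6 were higher, against 4.89%. With BMP4 64 were lower, against 6.83%, and none higher, against 7.25%. In KO without cytokine 14 were lower, against 3.33%, and 14 higher, against 4.19%. In KO with BMP4 11 were lower, against 2.75%, and 9 higher, against 4.01%. In the WT arrays without cytokine Axin2 read 61.0, 274 and 996 at 12, 24 and 36 h. At 0 h, where no cytokine had been added, KO and WT were close, with a median over the members of 0.04 log2: Snord104 alone was lower by 2-fold (431 in KO, 969 in WT), against 0.0981% of all genes, and no member was higher by 2-fold, against 0.106%.

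**Figure D2:**
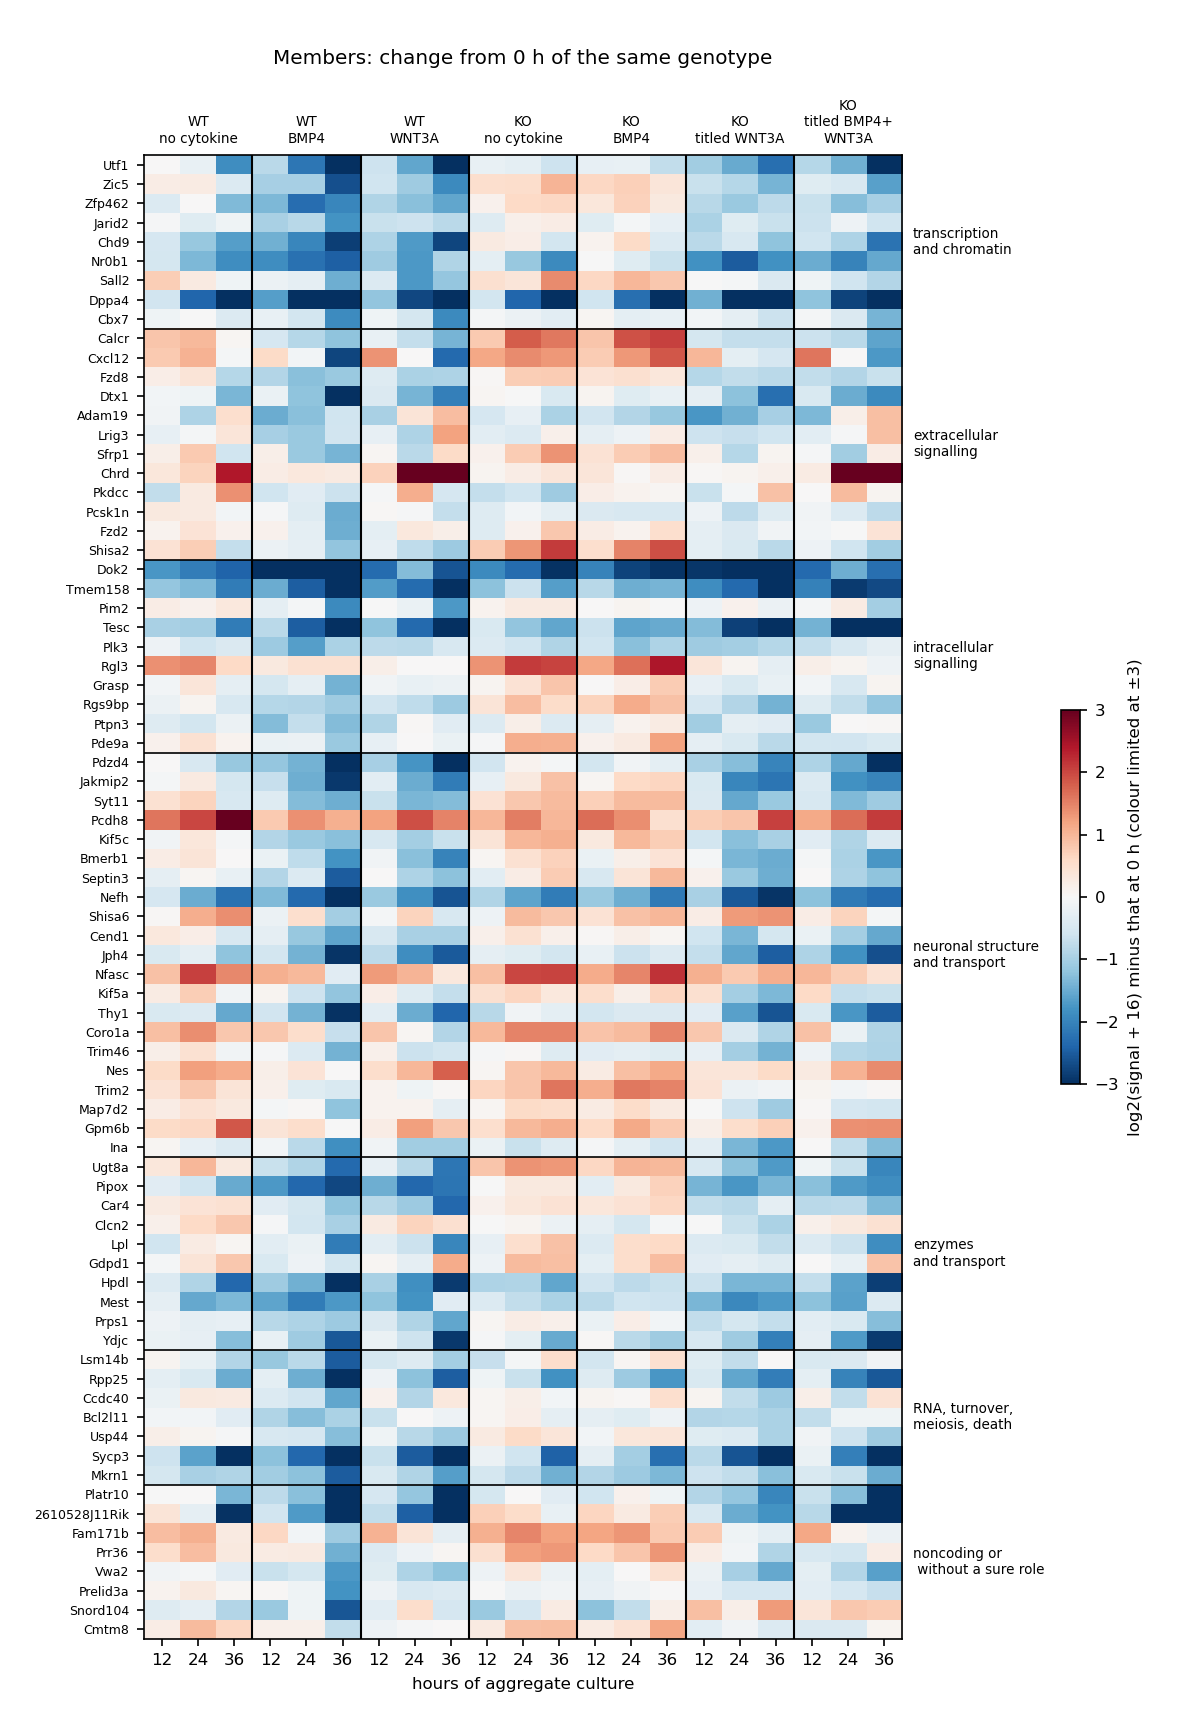
Change of each of the 77 members from 0 h of its own genotype, log2(signal + 16) of the deposited signal, 1 array per cell, with members grouped by role and colour limited at 3. The KO columns without cytokine and with BMP4 stay mostly pale or red, and the columns with WNT3A are mostly blue in both genotypes.

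Many members were lower in KO cells that received WNT3A. In the KO arrays titled WNT3A 34 of the 77 members passed as lower than KO without cytokine, against 5.51% of all genes, and none as higher, against 3.98% (1 member at an unadjusted p under 0.05, beside 1359 of all 13256 genes). In the KO arrays titled BMP4+WNT3A 34 passed as lower, against 3.79%, and Chrd alone as higher, against 2.96%. The median differences over all members were -0.95 and -0.98 log2, beside -0.01 and -0.02 over all genes tested. Both comparisons share the KO arrays without cytokine with each other and with the rule. The rule bears on these counts in opposite ways. Its threshold on the KO response prefers members whose level is low in the KO arrays without cytokine, which works against a fall. Its signal minimum works toward one for Calcr, Fzd8, Jakmip2, Pde9a, Rgs9bp, Shisa2 and Usp44, which exceeded 200 only in KO without cytokine or with BMP4. All 7 passed as lower in both groups, and of the other 70 members 27 passed in each. Because of that choice the p-values of the 7, here and below, are no support for a fall. Without the 3 arrays of high Gapdh ratio, 1 of which is a KO array without cytokine, the counts of lower members were 16 and 17. Without the 24 h arrays they were 2 and 0.

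Against KO cells with BMP4 alone the members stood likewise. Here 21 passed as lower in the arrays titled WNT3A, against 2.16%, and none as higher, against 1.82% (1 at an unadjusted p, beside 1019 of all 13256 genes). In the arrays titled BMP4+WNT3A 32 passed as lower, against 4.06%, and Chrd as higher, against 3.68%. The medians were -0.91 and -0.93. The rule prefers members that are high in the KO arrays with BMP4, which works toward a fall in these comparisons. Of the 7 members above 200 only in KO without cytokine or with BMP4, 5 and 7 passed, and of the other 70, 16 and 25. No member passed without the 24 h arrays.

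**Figure D3:**
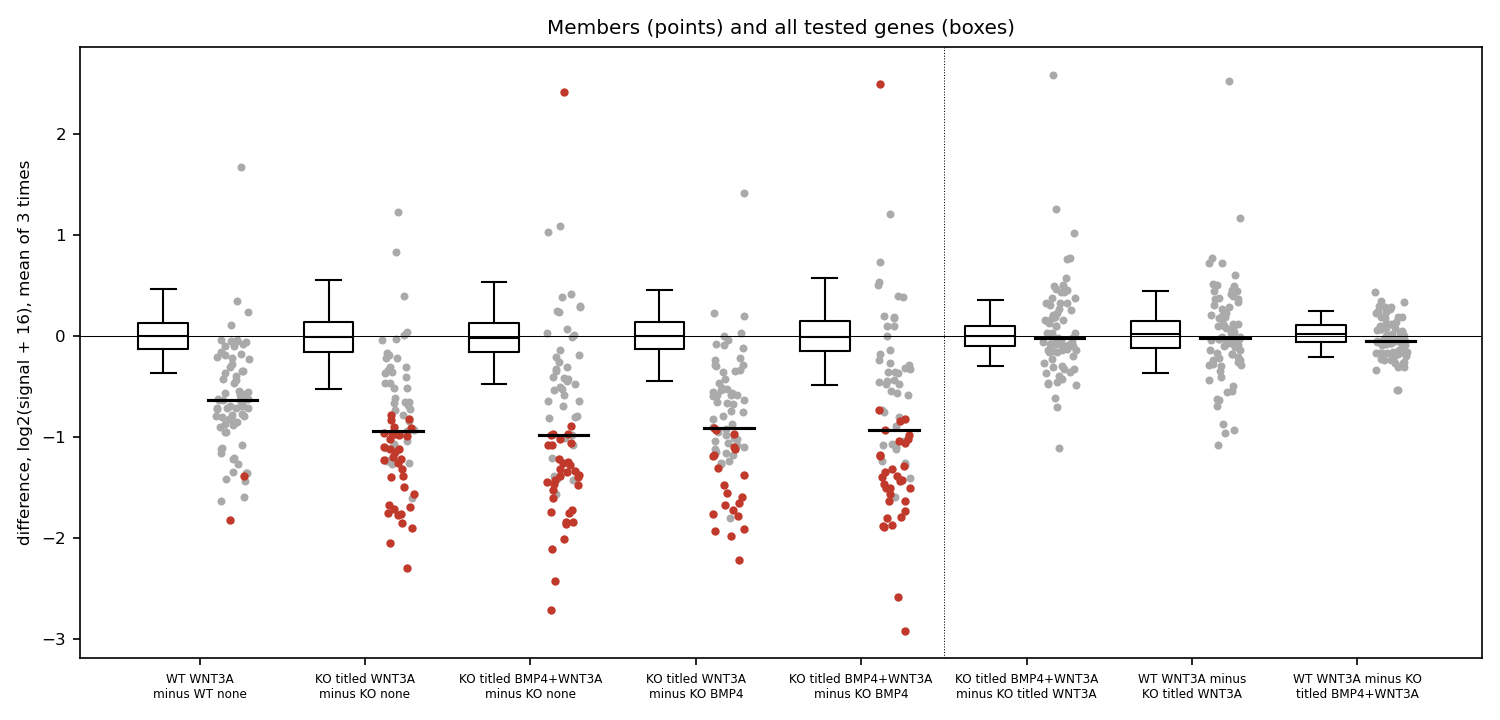
Differences in log2(signal + 16), means over 3 times, for the 77 members (points, with a bar at their median) and all 13256 genes tested (boxes from the lower to the upper quartile, whiskers at the 5th and 95th percentile). Red points passed at adjusted p under 0.05 in limma. The 5 comparisons left of the dotted line share arrays with the rule, and the 3 to its right do not.

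The genes of transcription and chromatin hold several regulators of the epiblast state. Of these 9 members 4 passed as lower in KO titled WNT3A and 4 in KO titled BMP4+WNT3A, against 5.51% and 3.79% of all genes. Over all members 44.2% passed in each group, and no difference between roles was tested. Utf1, a chromatin protein of pluripotent cells, read 6252 in WT and 7082 in KO at 0 h. In WT it read 6252, 5330 and 1710 at 12, 24 and 36 h without cytokine and 3591, 1389 and 360 with BMP4. The KO cells kept 6039, 5753 and 4576 without cytokine and 5997, 6039 and 4240 with BMP4. The KO arrays titled WNT3A read 3444, 2487 and 1458, all below every KO array without WNT3A, yet the difference from KO without cytokine of -1.23 ± 0.46 (SE) did not pass (adjusted p = 0.111). Its slope passed: over the 3 groups outside the rule Utf1 fell by 1.25 ± 0.08 log2 per 12 h (adjusted p = 1.30e-06). Zic5, a zinc finger gene of the epiblast and neural plate, read 1226, 1252 and 1771 in KO without cytokine and 534, 468 and 315 in KO titled WNT3A. The groups did not overlap, and the difference was -1.69 ± 0.31 (adjusted p = 0.00247). In KO titled BMP4+WNT3A Zic5 read 666, 613 and 267, a difference of -1.60 ± 0.31 (adjusted p = 0.00488).

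Zfp462, a zinc finger protein of heterochromatin, read 1121, 1552 and 1585 in KO without cytokine, 560, 465 and 584 in KO titled WNT3A and 639, 413 and 498 in KO titled BMP4+WNT3A. Both WNT3A groups lay below every array of the first, with differences of -1.40 ± 0.28 and -1.53 ± 0.28 (adjusted p = 0.00509 and 0.00395), and the gap was already present at 12 h. Sall2, a spalt-type zinc finger factor, read 1287, 1176 and 2487 without cytokine against 838, 600 and 488 in KO titled BMP4+WNT3A (-1.37 ± 0.35, adjusted p = 0.0262). It read 910, 873 and 676 in KO titled WNT3A, where the difference of -0.95 ± 0.35 did not pass (adjusted p = 0.105). Chd9, a chromodomain helicase, was lower in both groups, at -0.82 ± 0.23 and -1.28 ± 0.23 (adjusted p = 0.0308 and 0.00293). Nr0b1 encodes the nuclear receptor DAX1 and is itself active in naive cells. Its mean over the times was lower, at -0.97 ± 0.28, in KO titled WNT3A (adjusted p = 0.0369). The fall was not steady, since the sign was negative at only 2 of the times. At 36 h its changes from 0 h were close, at -1.98 log2 in KO titled WNT3A and -2.03 in KO without cytokine. Against KO with BMP4, where Nr0b1 read 393, 304 and 246, it was lower, at -1.67 ± 0.28 (adjusted p = 0.00293). The rule prefers members that are high in those arrays, and the KO response of Nr0b1 was 0.76. That p-value is therefore no support for a fall. Dppa4, a marker of pluripotent cells, behaved otherwise: its signal was lower at each later time in every group, going from 4804 at 0 h to 198 at 36 h in WT without cytokine and from 5043 to 175 in KO without cytokine. Its differences of -0.04 ± 0.34 and -0.01 ± 0.34 did not pass (adjusted p = 0.969 and 0.994). Jarid2, a partner of Polycomb repressive complex 2, and Cbx7, a Polycomb chromobox protein, had differences of -0.69 ± 0.22 and -0.19 ± 0.29 in KO titled WNT3A and did not pass (adjusted p = 0.0614 and 0.763).

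Among 12 genes of signalling between cells 4 passed as lower in each KO WNT3A group, against 5.51% and 3.79% of all genes. Calcr, the receptor of calcitonin, Shisa2 and Fzd8 are among the 7 members that met the signal minimum only through KO arrays without cytokine or with BMP4, so they had to be high there. Their p-values are therefore no support for a fall. Calcr read 171, 367 and 307 in KO without cytokine and 176, 393 and 437 in KO with BMP4. It read 59.3, 50.2 and 49.9 in KO titled WNT3A and 53.4, 45.6 and 20.3 in KO titled BMP4+WNT3A. The KO cells with WNT3A lay below their 0 h level of 92.4 and those without it above it, and the differences from no cytokine were -2.05 ± 0.33 (adjusted p = 0.000917) and -2.42 ± 0.33 (adjusted p = 0.000438). Shisa2, which holds FGF and WNT receptors back inside the cell, went from 74.0 at 0 h to 370 at 36 h in KO without cytokine and read 35.8 and 27.7 at 36 h in the KO groups titled WNT3A and BMP4+WNT3A. It was lower, at -1.90 ± 0.41 and -2.01 ± 0.41 (adjusted p = 0.00715 and 0.00710). Fzd8, a WNT receptor, read 165, 280 and 286 in KO without cytokine against 82.1, 89.9 and 85.0 in KO titled WNT3A, a difference of -1.32 ± 0.25 (adjusted p = 0.00323). Fzd2, another WNT receptor, and Sfrp1, a secreted WNT antagonist, had differences of -0.47 ± 0.35 and -0.97 ± 0.47 there and did not pass (adjusted p = 0.464 and 0.226). Of the other Sfrp1 probe sets 2 exceeded 200, and their WT responses to BMP4 of -0.01 and 0.10 do not share the fall of the one used.

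Cxcl12, the chemokine that guides migrating germ cells, had a course of its own. It went from 338 at 0 h to 771, 936 and 855 in KO without cytokine. In KO titled BMP4+WNT3A it read 1060, 338 and 91.1, above the untreated cells at 12 h and below them later. Its difference over the times did not pass (-1.39 ± 0.68, adjusted p = 0.262), and its slope over the 3 groups outside the rule was -1.46 ± 0.13 log2 per 12 h (adjusted p = 1.32e-05). Dtx1, a regulator of Notch signalling, was lower, at -1.12 ± 0.34, in KO titled WNT3A (adjusted p = 0.0479).

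Chrd, which encodes the BMP antagonist chordin, was the one member that passed as higher in KO titled BMP4+WNT3A. It read 65.3 in KO at 0 h, between 67.2 and 89.3 in the KO arrays of 12 to 36 h without cytokine or with BMP4, and 67.6, 69.6 and 74.0 in KO titled WNT3A. In KO titled BMP4+WNT3A it read 81.0, 695 and 2150, and in WT with WNT3A 98.4, 695 and 1531. At 36 h it read 357 in WT without cytokine and 70.0 in WT with BMP4, from 54.9 at 0 h. Its slope was 2.18 ± 0.22 log2 per 12 h in KO titled BMP4+WNT3A (adjusted p = 0.000226) and 0.06 ± 0.22 in KO titled WNT3A (adjusted p = 0.931). The difference of -2.13 ± 0.31 between these slopes passed (adjusted p = 0.0414). Chrd was the 1 member lower for that difference, against 0.0604% of all genes, and none was higher, against 0%. At an unadjusted p under 0.05 5 members were lower, beside 594 of all 13256 genes, and 11 higher, beside 364. With the labels of the 6 arrays exchanged, Chrd in KO titled BMP4+WNT3A minus KO without cytokine was -0.17 in place of 2.41 ± 0.70 (adjusted p = 0.0492). Clcn2, a chloride channel gene and also a member, lies close to Chrd on chromosome 16, with 2 genes between them in the RefSeq order. Clcn2 differences from KO without cytokine were -0.52 ± 0.24 and 0.25 ± 0.24 and did not pass (adjusted p = 0.204 and 0.619).

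**Figure D4:**
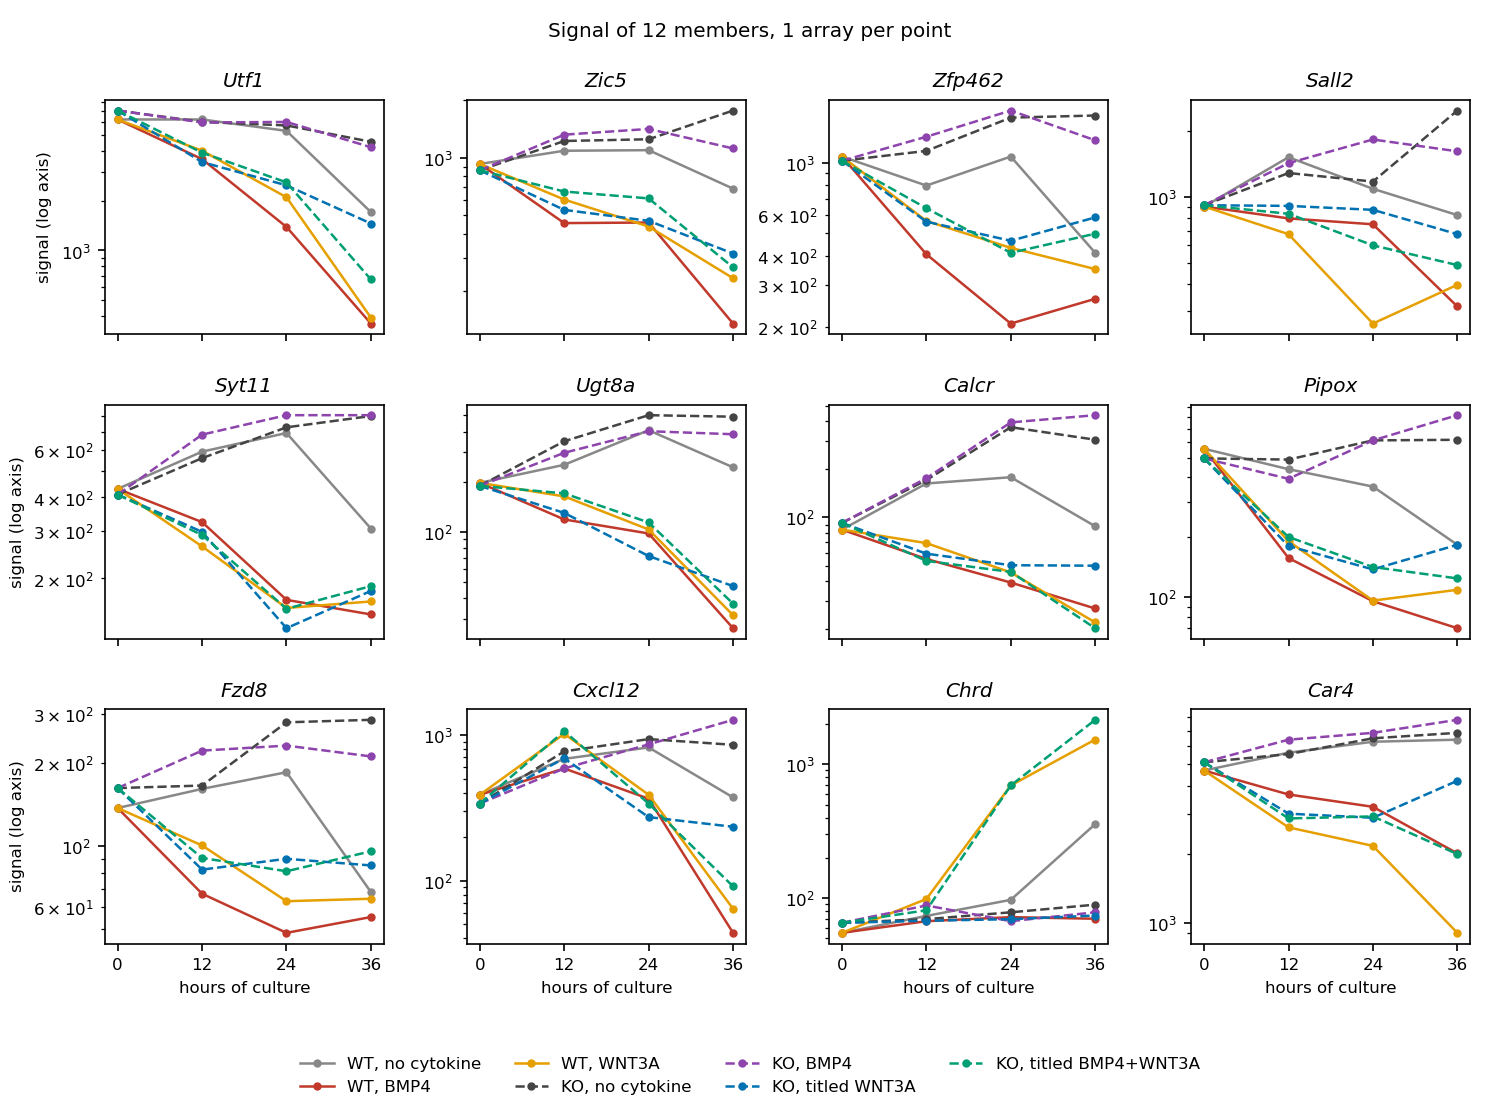
Deposited signal of 12 members on log axes against hours of culture, 1 array per point, WT with full and KO with dashed lines, each line starting at the 0 h array of its genotype. For most of the genes the lines of KO with WNT3A run with those of WT with BMP4 or WNT3A, while Chrd is highest in WT WNT3A and KO titled BMP4+WNT3A.

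Within the cell, 10 members take part in signal transduction. Of these 5 passed as lower in each KO WNT3A group, against 5.51% and 3.79% of all genes. Rgs9bp, an anchor of the G protein regulator RGS9, met the signal minimum only through such KO arrays without WNT3A, as did Pde9a. Rgs9bp read 138, 205 and 156 in KO without cytokine and 67.2, 47.8 and 27.7 in KO titled WNT3A. The difference of -1.57 ± 0.17 had an adjusted p of 4.49e-05, which given that choice is no support for a fall, and neither are the values of Pde9a. Rgl3, an exchange factor for Ral and a Ras effector, went from 102 at 0 h to 468 at 36 h in KO without cytokine and read 82.1 at 36 h in KO titled WNT3A (-1.76 ± 0.26, adjusted p = 0.000565). Tesc, a calcium-binding regulator of ion exchange, was lower, at -1.68 ± 0.34 and -1.84 ± 0.34 (adjusted p = 0.00524 and 0.00397), and Pde9a, a cyclic GMP phosphodiesterase, likewise, at -1.22 ± 0.29 and -1.26 ± 0.29 (adjusted p = 0.0147 and 0.0162). Pim2, a survival kinase and the brightest member with up to 9947, did not pass (-0.31 ± 0.36 and -0.54 ± 0.36, adjusted p = 0.669 and 0.432). Dok2, an adaptor of receptor tyrosine kinases, was lower than at 0 h in every group by 12 h, going from 1641 to 474 in WT and from 1924 to 501 in KO without cytokine. It did not pass either (-0.73 ± 0.29 and 0.28 ± 0.29, adjusted p = 0.139 and 0.645).

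The largest role held 21 genes of neuronal structure and transport. Of these 11 passed as lower in KO titled WNT3A and 9 in KO titled BMP4+WNT3A, against 5.51% and 3.79% of all genes. Syt11, a synaptotagmin of vesicle traffic, read 560, 729 and 803 in KO without cytokine and 685, 809 and 809 with BMP4. It read 298, 131 and 180 in KO titled WNT3A and 290, 154 and 187 in KO titled BMP4+WNT3A, with no overlap. The differences from no cytokine were -1.77 ± 0.29 (adjusted p = 0.00105) and -1.75 ± 0.29 (adjusted p = 0.00187). The probe set used for Syt11 carries the suffix by which Affymetrix marks possible cross-hybridisation, and 4 other Syt11 probe sets above 200 met both thresholds of the rule as well. Kif5c, a kinesin heavy chain, was lower, at -1.75 ± 0.22 and -1.45 ± 0.22 (adjusted p = 0.000159 and 0.00109), and Jakmip2, a coiled-coil protein of the Golgi that exceeded 200 only in KO without cytokine or with BMP4, likewise, at -1.85 ± 0.48 and -1.72 ± 0.48 (adjusted p = 0.0230 and 0.0417). Coro1a, an actin-binding coronin, read 699, 1010 and 1017 in KO without cytokine against 626, 256 and 181 in KO titled WNT3A (-1.50 ± 0.41, adjusted p = 0.0295), close at 12 h and apart later. Trim2, a ubiquitin ligase of axons, was lower, at -0.99 ± 0.22 and -1.08 ± 0.22 (adjusted p = 0.00950 and 0.00784). Nes, the intermediate filament gene of neural progenitors, and Gpm6b, a membrane proteolipid of neural cells, had differences of -0.22 ± 0.23 and -0.41 ± 0.28 in KO titled WNT3A and did not pass (adjusted p = 0.629 and 0.424). Pcdh8, a protocadherin that is active in the early mesoderm, was higher at 36 h than at 0 h in all groups, going from 87.4 in WT and 81.6 in KO to 949 at 36 h in WT without cytokine and 385 in KO titled WNT3A. Pdzd4, a PDZ domain protein, went from 1783 at 0 h to 201 at 36 h in KO titled BMP4+WNT3A (-1.74 ± 0.49 against no cytokine, adjusted p = 0.0417). For Septin3, a cytoskeletal GTPase of neurons, another probe set above 200 had a WT response of 0.14, unlike the one used (-1.12).

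Of 10 enzymes and transport genes 5 passed as lower in each group, against 5.51% and 3.79% of all genes. Ugt8a, which makes galactosylceramide, the lipid of myelin, had the lowest WT response of all members at -1.84. It read 350, 501 and 491 in KO without cytokine, 298, 402 and 385 in KO with BMP4 and 130, 71.5 and 47.2 in KO titled WNT3A. In KO titled BMP4+WNT3A it read 170, 114 and 37.0, and the differences from no cytokine were -2.30 ± 0.37 (adjusted p = 0.000917) and -2.11 ± 0.37 (adjusted p = 0.00248). Pipox, a peroxisomal oxidase of pipecolic acid and sarcosine, read 491, 613 and 617 in KO without cytokine against 181, 138 and 184 in KO titled WNT3A (-1.71 ± 0.30, adjusted p = 0.00202). Car4, a membrane-bound carbonic anhydrase, read 5518, 6472 and 6841 in KO without cytokine and 3019, 2896 and 4211 in KO titled WNT3A, where the difference of -0.94 ± 0.30 did not pass (adjusted p = 0.0614). In KO titled BMP4+WNT3A it read 2876, 2937 and 2006 and was lower, at -1.33 ± 0.30 (adjusted p = 0.0138). Mest, an imprinted gene of the mesoderm, passed in KO titled WNT3A alone of the 2 groups (-1.02 ± 0.30, adjusted p = 0.0441), and its difference between them of 0.57 ± 0.30 did not pass (adjusted p = 0.765). Lpl, the lipoprotein lipase, had differences of -0.94 ± 0.46 and -1.42 ± 0.46 that did not pass (adjusted p = 0.240 and 0.0811).

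The remaining members are 7 genes of RNA, protein turnover, meiosis and cell death, with 3 and 2 passing as lower, and 8 noncoding genes or genes without a sure role, with 2 and 5. Over all genes the shares were 5.51% and 3.79%. Sycp3, a protein of the synaptonemal complex in meiosis, was lower at 36 h than at 0 h in every group, where it read 576 in WT and 491 in KO. At 36 h it read 77.7 in KO without cytokine and 30.1 in KO titled WNT3A, and it was lower, at -1.23 ± 0.23, over the times (adjusted p = 0.00303). Bcl2l11, which encodes the cell death activator BIM, was lower, at -0.91 ± 0.19, in KO titled WNT3A (adjusted p = 0.00547) and had a difference of -0.41 ± 0.19 in KO titled BMP4+WNT3A (adjusted p = 0.221). Usp44, a deubiquitinase that exceeded 200 only in KO without cytokine or with BMP4, was lower, at -0.99 ± 0.20 and -1.06 ± 0.20 (adjusted p = 0.00576 and 0.00464). Platr10, a noncoding RNA of pluripotent cells, did not pass against no cytokine (-1.07 ± 0.44 and -1.43 ± 0.44, adjusted p = 0.147 and 0.0639) and read 67.2 at 36 h in KO titled BMP4+WNT3A against 662 at 0 h. Snord104, a small nucleolar RNA, was the member with the highest KO titled WNT3A difference, 1.23 ± 0.50, which did not pass (adjusted p = 0.148).

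In WT cells WNT3A alone gave lower levels than no cytokine for 73 of the 77 members, with a median of -0.64 beside -0.01 over all genes. Only Car4 (-1.82 ± 0.30, adjusted p = 0.0235) and Syt11 (-1.38 ± 0.29, adjusted p = 0.0471) passed as lower, against 0.226% of all genes, and none passed as higher, against 0.256% (1 member at an unadjusted p under 0.05, beside 948 of all 13256 genes). At an unadjusted p under 0.05 39 members were lower, against 6.73% of all genes. Car4 read 2628, 2180 and 904 with WNT3A and 5595, 6252 and 6383 without, with no overlap. The rule prefers members that are high in WT without cytokine, which works toward a fall. No share of all genes stands beside the 73 of 77, so nothing is read from that count. Shisa6 met the signal minimum only through WT arrays without cytokine, so its difference of -0.79 ± 0.33 is no support for a fall. Neither Car4 nor Syt11 passed without the arrays of high Gapdh ratio (adjusted p = 0.105 for Car4 and 0.0814 for Syt11). The count of lower members was 15 without the 36 h arrays and 0 without those of 12 h or of 24 h.

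The 3 comparisons among the groups that the rule did not use showed few differences in the members. Between the KO groups, BMP4+WNT3A minus WNT3A by title, no member passed, against 0.196% of all genes lower and 0.143% higher. At an unadjusted p under 0.05 in limma 1 member was lower and 7 were higher, beside 441 and 525 of all 13256 genes. The median was -0.02 and the members ranged from -1.11 (2610528J11Rik) to 2.58 (Chrd). For WT WNT3A minus KO titled WNT3A no member passed, against 0.279% lower and 0.264% higher, and the median was -0.02. At an unadjusted p 4 members were lower and 7 higher, beside 795 and 1084 of all 13256 genes. For WT WNT3A minus KO titled BMP4+WNT3A none passed, against 0.00754% in each direction. None had an unadjusted p under 0.05, beside 125 of all 13256 genes lower and 215 higher. Here the members ranged from -0.54 to 0.43, and the median was -0.05. For single members the precision is limited: Ugt8a differed by 0.19 ± 0.37 between the KO groups and Utf1 by -0.33 ± 0.46, so differences of moderate size would not have been seen.

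Over time in these same 3 groups 45 members fell and 7 rose, against 13.7% and 12.8% of all genes. The median slope was -0.39 log2 per 12 h beside -0.01 over all genes. Sycp3 had the steepest fall (-1.59 ± 0.09, adjusted p = 1.08e-06), with Cxcl12, Utf1, Ydjc, Tesc, Dppa4 and Thy1, a surface glycoprotein, each falling by more than 1 log2 per 12 h. Some of these also fell in KO without cytokine, where slopes were not tested. From 12 to 36 h Sycp3 went there from 437 to 77.7, Dppa4 from 3421 to 175 and Ydjc from 1663 to 588. Tesc went from 357 to 158 and Utf1 from 6039 to 4576, but Cxcl12 from 771 to 855 and Thy1 from 224 to 331. The risers were Chrd (1.35 ± 0.13), Adam19, a shedding protease (0.76 ± 0.14), Nes (0.40 ± 0.07), Lrig3, a membrane regulator of growth factor receptors (0.39 ± 0.11), Pcdh8 (0.35 ± 0.11), Gpm6b (0.35 ± 0.12) and Ptpn3, a tyrosine phosphatase (0.33 ± 0.09). Taken group by group, 32 members fell in WT WNT3A, against 4.48% of all genes, and 3 rose, against 5.66%. In KO titled BMP4+WNT3A 32 fell, against 3.86%, and 3 rose, against 5.61%. In KO titled WNT3A 20 fell, against 1.37%, and none rose in limma, against 1.49% (3 at an unadjusted p under 0.05, beside 1080 of all 13256 genes). Against 0 h, 45 members were lower by 2-fold or more at 36 h in WT WNT3A, against 5.17% of all genes. The counts were 42 in KO titled WNT3A, against 4.31%, and 45 in KO titled BMP4+WNT3A, against 4.91%, with no test since each rests on a pair of arrays.

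**Figure D5:**
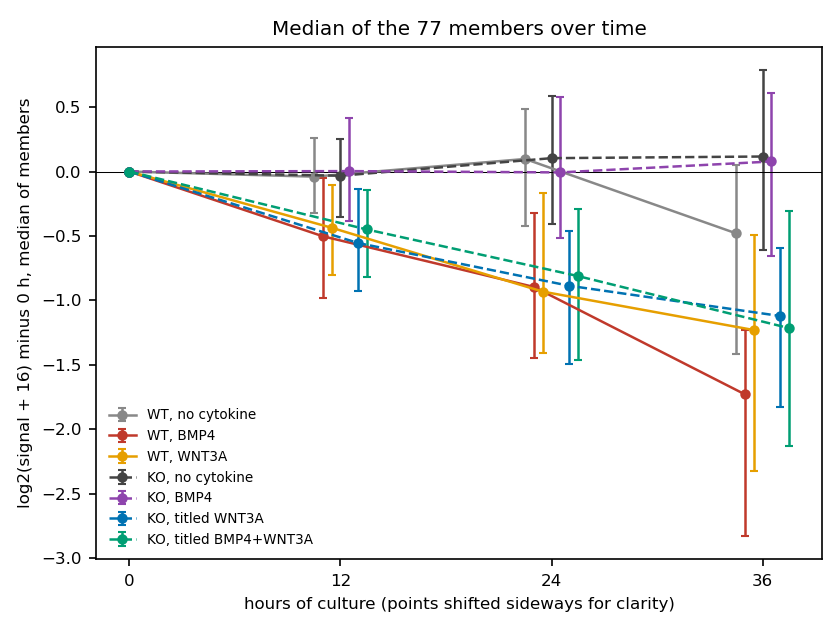
Median over the 77 members of log2(signal + 16) minus the 0 h value of the same genotype, on quantile normalized values, against hours of culture. Bars run from the lower to the upper quartile of members. At 36 h the medians of KO without cytokine (0.12) and KO with BMP4 (0.08) stand above 0, and those of the other 5 groups lie between -1.73 (WT BMP4) and -0.48 (WT without cytokine).

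Summed marker signals also differed between the groups, and a sum can hide markers that move in opposite ways. The summed signal of the 10 epiblast markers, Utf1 among them, was 40730 and 40981 at 0 h. In WT it was 35841 to 43823 without cytokine, 21171 to 38228 with BMP4 and 17596 to 39502 with WNT3A. In KO it was 40508 to 42420 without cytokine, 40880 to 47196 with BMP4, 31870 to 38802 in the arrays titled WNT3A and 22536 to 40890 in those titled BMP4+WNT3A. Single epiblast markers went both ways. At 12 h Nanog read 1067 in KO without cytokine, 3692 in KO titled WNT3A and 3743 in KO titled BMP4+WNT3A. Otx2 read 657, 199 and 269 in the same arrays. That of 7 nascent mesoderm markers, in the same order of groups, was 377 to 2508, 1664 to 12186 and 1035 to 3522 in WT. In KO it was 287 to 352, 326 to 355, 1409 to 4403 and 1124 to 2916, and Pdgfra never exceeded 200. The 7 neural markers, Nes among them, summed to 2820 to 3945, 897 to 1627 and 2004 to 3292 in WT. In KO they summed to 2466 to 4548, 2386 to 3288, 1120 to 1552 and 1881 to 2578, so that the arrays titled WNT3A lay below all other KO arrays, and Zic1 and Neurog2 never exceeded 200. The 8 trophoblast markers summed to 228 to 318, 321 to 2329 and 252 to 888 in WT and to 214 to 395, 308 to 508, 233 to 803 and 317 to 966 in KO, and Elf5, Tfap2a, Ascl2 and Tpbpa never exceeded 200. Most of the highest sum came from Hand1 (1261) and Gata3 (592), in WT with BMP4 at 36 h. The 8 extraembryonic endoderm markers summed to 371 to 1530, 416 to 848 and 737 to 1955 in WT and to 404 to 544, 431 to 516, 410 to 491 and 765 to 2820 in KO, and Gata6, Sox17, Sox7, Afp and Ttr never exceeded 200. Foxa2 alone made up most of the highest sums. At 36 h it read 1160 in WT without cytokine, 1520 in WT with WNT3A and 2385 in KO titled BMP4+WNT3A. The 8 feeder fibroblast markers, Thy1 among them, summed to 627 to 669, 567 to 1021 and 569 to 1220 in WT and to 565 to 894, 531 to 631, 381 to 595 and 448 to 1096 in KO, and Lum, Col1a1 and Postn never exceeded 200. Pdgfrb was the largest part of the highest sums, with 584, 556 and 484 at 36 h in WT BMP4, WT WNT3A and KO titled BMP4+WNT3A. In such bulk samples fewer cells of a type and less RNA per cell cannot be told apart, and the part of these shifts in the falls of the members was not tested.

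Other genes of the same programmes gave a mixed picture. For scale, 5.51% of all genes passed as lower and 3.98% as higher in KO titled WNT3A against no cytokine. In KO titled BMP4+WNT3A the shares were 3.79% and 2.96%. Of 20 other kept genes of the primed epiblast list, to which Sall2, Utf1 and Zic5 belong, 8 passed as lower and 1 as higher in KO titled WNT3A against no cytokine, and 8 and 3 in KO titled BMP4+WNT3A. These others include symbols that the rule left out by family, such as Otx2 and Pou3f1. Of the 23 kept genes of this list 11 met the WT threshold, so the falls of the others are not independent of the rule. Of 21 other genes of core and naive pluripotency, the list of Nr0b1, Dppa4 and Jarid2, none passed as lower and 5 as higher in each group. Among 22 other neural ectoderm genes, the list of Nes and Gpm6b, 4 and 3 passed as lower and none as higher. No member was in the WNT-beta-catenin response list, of whose 15 kept genes none passed as lower and 4 and 7 as higher. The Nodal list of 11 genes had 3 and 2 higher and none lower, the epithelial junction list of 24 genes 4 and 6 lower and 3 and 1 higher, and the FGF-ERK feedback list of 10 genes 1 lower in each group and 3 and 4 higher. Of 11 glycolysis genes 1 passed, as lower in KO titled BMP4+WNT3A, of 10 p53 response genes 5 and 3 passed as higher, and of 7 other apoptosis regulators and 18 other chromatin regulators none passed in either group.

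More than 1 probe set bears on many of the members. Another probe set named 42 of them, 82 probe sets in all, and 30 of these, in 18 members, exceeded 200 on some array. A WT response under 0 was seen in 28 of the 30, and 16, in 12 members, met both thresholds. All 77 members passed the filter on dim genes, 64 of them above the median on every array, and the member seen above it least often was so on 15 arrays. Of the 77, 75 are protein-coding, 1 is a long noncoding RNA and 1 a small nucleolar RNA, and 9 lie on chromosome 11 and 7 on chromosome X.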

How the data were processed

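The 23 arrays were grouped by sample title. The authors deposited linear intensity values, 1 for every probe set on each array. How the values were computed is not stated in the labels or file headers. Per the labels, amplified cDNA was turned into biotinylated cRNA. Of 45101 probe sets 34958 name 1 gene in the platform annotation, 932 name several and 9211 name none. The reference table holds the gene of 34754 of these singly named probe sets. The rule was applied to log2(signal + 16) as deposited. Tests used limma 3.58.1 in R 4.3.3 on the same values after quantile normalization (upper quartiles differed by 0.35 log2, over a limit of 0.2), on 13256 genes above the array median on at least 3 arrays. The fit held 21 arrays, with terms for 7 conditions and, additively, for the 3 times, and 12 residual degrees of freedom, and slopes came from a linear course per condition with a common bend and 6. Adjusted p is Benjamini-Hochberg over all genes, with a threshold of 0.05, and errors are standard errors of the fit. The 0 h arrays enter no test.

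The members, their roles and the gene lists were chosen with earlier results of these data known. Named genes are the extremes of the rule, up to 8 passing members per direction and comparison with the same sign at all 3 times, list members, neighbours of the thresholds and members of sure function, and Wnt3, Id1 and Axin2 as checks; 2610528J11Rik, a gene model, is named as an extreme. Alternatives were no quantile normalization, median centring, an offset of 1 or 64, other filters, no variance trend, array weights, only the arrays compared, each time left out, no arrays of high Gapdh ratio, and exchanged labels. Both fits were also tested on simulated data, with means and spread taken from these arrays. Figures used matplotlib 3.10.9.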

Additional observations from a re-analysis of the deposited data

Results flagged for a closer look

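Chrd was the result that differed between groups: its slope in KO titled WNT3A minus that in KO titled BMP4+WNT3A was -2.13 log2 per 12 h (limma, adjusted p = 0.0414), from 67.6, 69.6 and 74.0 in the first group and 81.0, 695 and 2150 in the second. Id1 goes against the titles of both groups, so the order of this difference rests on labels that disagree.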

How the results depend on the processing

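The number of members, 77, moved to 50 with an offset of 64 (44 shared) and to 142 without the arrays of high Gapdh ratio (70 shared). Leaving out each time gave 63 to 166 genes, and the 63 found without 36 h shared 34 with the 77. Under the other alternatives of the rule it stayed between 56 and 96.

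Counts of lower members are given next, and for comparisons among the groups outside the rule counts in either direction. With only the arrays compared, 10 of 34 passed for KO titled BMP4+WNT3A minus KO without cytokine, 38 in place of 21 for KO titled WNT3A minus KO with BMP4, and 0 for WT WNT3A minus WT without cytokine. Without the arrays of high Gapdh ratio the counts were 16 and 17 for KO titled WNT3A and KO titled BMP4+WNT3A against no cytokine, and 0 for WT. For WT WNT3A minus WT without cytokine 1 in place of 2 passed as deposited, with median centring, without the filter, without the variance trend and with array weights. Array weights gave 3 members in place of 0 between the KO groups, counted in either direction. Exchanged labels gave 32 in place of 21 for KO titled WNT3A minus KO with BMP4, 21 in place of 32 for KO titled BMP4+WNT3A, and -0.17 for Chrd in KO titled BMP4+WNT3A minus KO without cytokine.

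Leaving out each time gave 2 to 29 and 0 to 37 lower members for KO titled WNT3A and BMP4+WNT3A against no cytokine. Against BMP4 the counts were 0 to 23 and 0 to 33, and for WT WNT3A minus WT without cytokine 0 to 15. Counted in either direction, 0 to 1 members passed between the KO groups and 0 to 2 for WT WNT3A minus KO titled WNT3A. The lowest values for KO came without 24 h, where 34 of 35 named results missed the threshold; the cause was not tested. The medians kept their sign under every alternative run for the 5 comparisons that share arrays with the rule, and 37 to 43 members in place of 45 fell over time when a group was left out. No paired analysis was possible because the labels give no replicate numbers; time enters the fit of the means as a term, so conditions were compared within times. The signal has no detection calls, so dim values such as those near 20 were not told apart from background.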
